A study of Mus musculus with 6 samples.

Results

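The replication-dependent histone genes were taken as the entries of the deposited mouse table whose symbol starts with Hist1h, Hist2h, Hist3h or Hist4h. Of 23997 gene symbols, 68 matched, and 61 averaged at least 1 normalized count across all 6 libraries. They comprised 5 entries of the linker histone H1, 15 of H2A, 16 of H2B, 12 of H3 and 13 of H4. The members just inside and just outside the minimum were Hist1h2af, with a mean of 2.78, and Hist1h2ao, with a mean of 0.505. Of the 7 entries left out, Hist1h2ao and Hist1h2ap held the same values, Hist1h1t had a mean of 0.158, and Hist1h2aa, Hist1h2br, Hist1h2bq and Hist1h2ba were at 0 in all 6 libraries.

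RNA-seq had been done on LSK cells (Lin-Sca-1+c-Kit+), a bone marrow fraction that holds stem cells and multipotent progenitors, from C57BL/6 mice aged 6 to 8 weeks. There were 3 libraries from Mirc11-/- mice, which lack the microRNA genes Mir23a, Mir27a and Mir24-2, and 3 from wildtype mice. Each library came from 1 RNA preparation that pooled the sorted cells of several mice, and RNA with a poly(A) tail was selected before library construction. The study's methods do not say whether the cells were sorted on the same day. A normalized count is the reads of a gene after scaling by the size factor of the library.

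Histone H2A, H2B, H3 and H4 form the core particle around which DNA is wrapped, and H1 binds the linker DNA between particles. The replication-dependent genes lie in clusters, are read mainly in S phase, and make most of the histone that newly copied chromatin needs. Their mRNAs usually have no introns and end in a stem-loop bound by the protein Slbp in place of a poly(A) tail, so that a poly(A)-selected library holds only the part of these RNAs that was captured by that selection. Some of the genes can also give longer, polyadenylated mRNAs.

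The stem-loop was found by its structure, 6 paired bases around a loop of 4, in 43 of the 61 members, at a median of 31 bases past the stop codon. These were 43 of the 47 members with more than 20 annotated bases past that codon. For 13 others no 3′ UTR was annotated, and the pseudogene Hist3h2bb-ps, without a coding sequence, was not searched. The stem-loop is shown with 5 bases on either side for the most abundant member of each class that has one. Hist1h2bb and Hist1h4b are added as other forms of it. The sites are printed because the ends of the annotated transcripts are compared with the read counts below. The stem is in capitals, T stands for U, and each site lies in the single exon of the transcript, in its 3′ UTR (GENCODE M21, GRCm38).
Hist1h1c (chr13:23738808-23740367, plus strand): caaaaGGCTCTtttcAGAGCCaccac
Hist3h2a (chr11:58954685-58956830, plus strand): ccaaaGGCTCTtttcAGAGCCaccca
Hist1h2bg (chr13:23571396-23572013, plus strand): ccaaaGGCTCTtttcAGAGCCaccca
Hist1h2bb (chr13:23746734-23747241, plus strand): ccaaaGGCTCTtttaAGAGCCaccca
Hist1h3d (chr13:23575763-23577011, plus strand): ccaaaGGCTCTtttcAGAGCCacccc
Hist1h4i (chr13:22040636-22041362, minus strand): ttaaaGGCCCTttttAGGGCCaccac
Hist1h4b (chr13:23757013-23757409, plus strand): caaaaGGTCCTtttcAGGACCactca

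The 16-base form of Hist1h1c was shared by 24 members of H1, H2A, H2B and H3 and by 0 members of H4. The H4 members used other stems, of which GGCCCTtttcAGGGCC was the most frequent, in 7 members. Searched only in the last 200 bases of the longest transcript of each protein-coding gene, the structure was in 48 of 21877 transcripts (0.219%), and 26 of the 48 were histone entries. The polyadenylation signal AATAAA stood in the last 50 bases of the transcripts of 11 of the 60 protein-coding members, against 59.2% of all protein-coding transcripts. In the 13 members without an annotated 3′ UTR those bases are mostly coding sequence, so a signal past the stop codon could not be seen. A match is a description of the letters and not evidence of use.

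The members lie on 4 chromosomes, 47 on chromosome 13, 10 on chromosome 3, 3 on chromosome 11 and 1 on chromosome 6, and 58 of them are annotated with a single exon. The 13 H4 members encode 1 protein of 103 residues, while the 12 H3 members encode 3 distinct proteins, the 15 H2A members 8, the 15 coding H2B members 10 and the 5 H1 members 5. The 16th H2B entry, Hist3h2bb-ps, is annotated as a processed pseudogene. Copies this close can exchange reads. The median share of 38-base stretches of the coding sequence, about 1 read of a pair, that also occur in another member ran from 25.6% in H1 to 88.4% in H3. The pairs Hist2h2aa1 with Hist2h2aa2 and Hist2h3c1 with Hist2h3c2 held the same value in every library. In addition, 21 members overlap an exon of another annotated gene, among them all 15 of H2A, and no source used here states that strand was used in counting. Values of single members are therefore uncertain, and sums over a class are given beside them.

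In the 55 promoters that matched RefSeq, from 250 bases before to 50 after the start on GRCm38.p6, CCAAT on either strand was present in 83.6%, against 37.92% of 27025 promoters of all genes. It was in all matched promoters of H1, H2A, H2B and H3 but in 3 of the 12 of H4. TATAAA was in 60.0%, against 14.16%. The octamer ATTTGCAT, a sequence bound by Pou2f1 in H2B promoters, was in 6 of 15 H2A and 5 of 13 H2B promoters and in 0 of H1, H3 and H4, against 1.75% of all promoters. It is shown in capitals with the other motifs in the 100 bases before the start of 2 of the most abundant H2B members that have it.
Hist1h2bg (chr13:23571300-23571399, plus strand): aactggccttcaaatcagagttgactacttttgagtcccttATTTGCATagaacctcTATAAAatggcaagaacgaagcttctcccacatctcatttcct
Hist1h2bb (chr13:23746634-23746733, plus strand): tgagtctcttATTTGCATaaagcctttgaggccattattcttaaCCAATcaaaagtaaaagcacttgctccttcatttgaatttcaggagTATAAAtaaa

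Reads in genes came to between 15029379 and 17051541 per library, and histone members took 0.00906% to 0.0192% of them. Reads on Mir23a were 0, 0 and 0 in Mirc11-/- libraries and 16, 16 and 19 in wildtype libraries, and Mir27a and Mir24-2 were likewise at 0 in all Mirc11-/- libraries. Relative to depth, with a floor of 3 reads for the 3 Mirc11-/- libraries together, these are at least 16.7-fold lower for Mir23a, 17.7-fold for Mir27a and 23.9-fold for Mir24-2. Kit and all other tested LSK markers were detected. The genotypes were compared by limma on log2(normalized count + 1) over 15662 genes, and p-values were adjusted over all of them by the Benjamini-Hochberg method (threshold 0.05). Log2 fold changes are Mirc11-/- minus wildtype and, because of the added 1, understate the differences of low genes.

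Taken as a sum, histone counts were lower in each Mirc11-/- library than in wildtype libraries 1 and 2, but not consistently lower than in wildtype library 3. The sum over all 61 members was 1461, 1640 and 2161 normalized counts in Mirc11-/- libraries 1, 2 and 3, against 3050, 3095 and 1588 in wildtype libraries 1, 2 and 3. Wildtype libraries 1 and 2 were the highest, wildtype library 3 lay among the Mirc11-/- libraries, and the groups overlapped. The means were 1754 ± 364 in Mirc11-/- and 2578 ± 858 in wildtype libraries (SD, n = 3 each), a log2 ratio of -0.56 that became -0.81 without wildtype library 3. In bulk RNA selected for poly(A), fewer cells in S phase, less histone RNA per cell and a smaller captured part of it cannot be told apart.

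In the limma fit, 56 of 61 members had a negative log2 fold change, against 49.5% of all genes tested, with a median of -0.72, against 0.0025 over all genes. Of these members 0 passed the threshold in either direction, where 0.0255% of all genes were lower and 0.00638% higher, and the smallest adjusted p of a member was 0.458. At an unadjusted p under 0.05, 7 members were lower (all genes: 4.09%) and 0 higher (4.15%). The groups did not overlap for 5 members, all lower (all genes: 6.53%), and for 0 in the other direction (6.42%). On the recovered reads, edgeR called 0 members (0.0255% of all genes, 14 members at p under 0.05 before adjustment) and DESeq2 called 0 (0.798%, 15 members). Without wildtype library 3 the median was -1.35, and 35 members were lower at p under 0.05 before adjustment, with 0 past the threshold. The library left out there was the lowest wildtype library for 55 members. The shares of all genes at p under 0.05 before adjustment are not given for that fit, edgeR or DESeq2, so these counts lack a background.

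**Figure D1:**
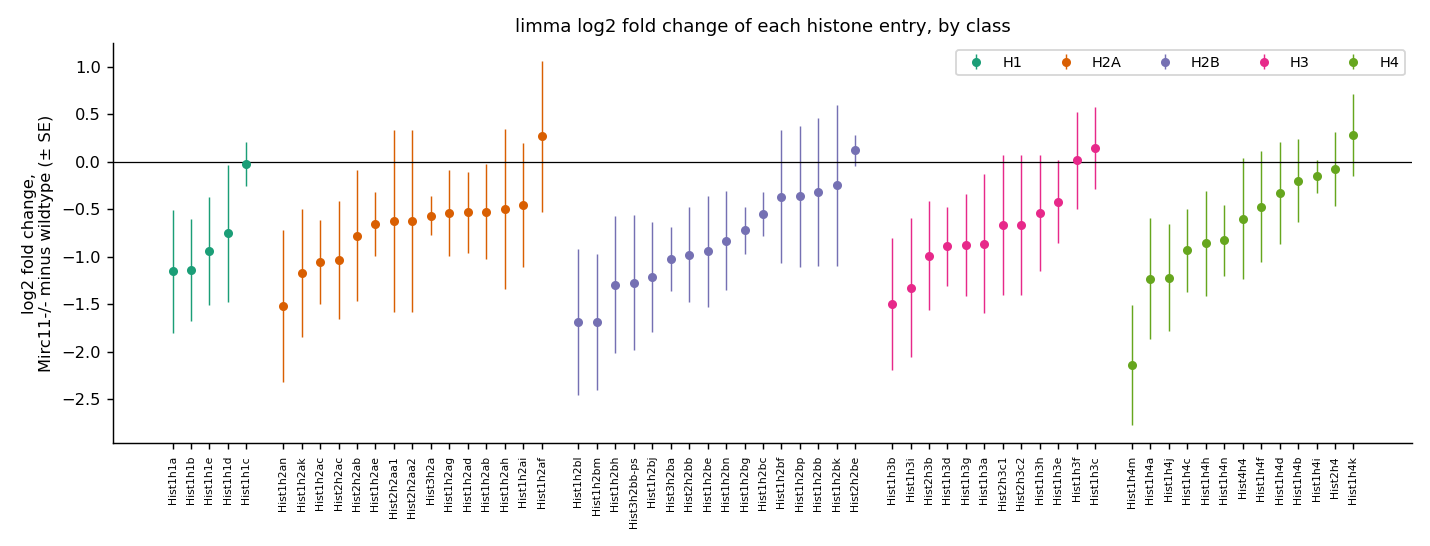
The limma log2 fold change of each of the 61 histone members (points, Mirc11-/- minus wildtype, bars ± SE), ordered within each class. In all 5 classes most points lie below 0, 56 of 61 in total, and many of the SE bars are wide.

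The division between libraries was the same for most members. Both wildtype libraries 1 and 2 were above the other 4 libraries for 48 of 61 members (78.7%), against 8.49% of all genes tested. Wildtype library 3 was the lowest of the 3 wildtype libraries for 55 members (90.2%), where it was for 37.0% of all genes. Mirc11-/- library 3 was the highest of its group for 45 members (73.8%), against 40.1%. The median member stood at -0.94, -0.98 and -0.21 relative to its wildtype mean in Mirc11-/- libraries 1, 2 and 3, and at 0.59, 0.53 and -0.97 in wildtype libraries 1, 2 and 3. So the distance between the wildtype libraries was as wide as that between the groups.

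**Figure D2:**
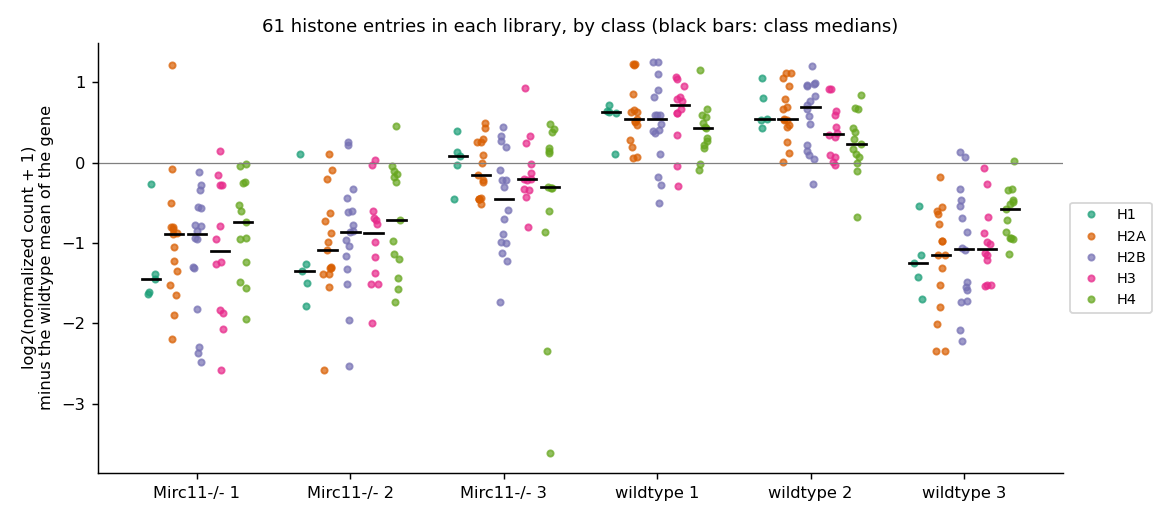
Each point is 1 histone member in 1 library, as log2(normalized count + 1) minus that gene's mean over the 3 wildtype libraries, with black bars at the class medians. The members sit mostly above 0 in wildtype libraries 1 and 2, and mostly below it in wildtype library 3 and in Mirc11-/- libraries 1 and 2, with Mirc11-/- library 3 between.

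Wildtype libraries 1 and 2 were the highest in the sums of all 5 classes, with differences in size between classes. Per class, H1 summed to 351, 430 and 613 normalized counts in Mirc11-/- libraries, against 760, 882 and 314 in wildtype libraries. H2A summed to 222, 246 and 403 in Mirc11-/- libraries, against 598, 589 and 299 in wildtype libraries. H3 had the smallest sums, with 82.3, 93.5 and 159 in Mirc11-/- libraries, against 268, 211 and 86.1 in wildtype libraries. In these 3 classes wildtype library 3 was at 0.382, 0.504 and 0.359 of the mean of wildtype libraries 1 and 2, for H1, H2A and H3. H2B, which averaged 30.2% ± 2.87 of the histone counts (SD over 6 libraries), was at 0.656 there. Its sums were 441, 508 and 621 in Mirc11-/- libraries, against 853, 867 and 564 in wildtype libraries. The H4 sums were nearly equal in the 3 Mirc11-/- libraries, at 365, 362 and 365, against 571, 546 and 324 in wildtype libraries. This rested on Hist1h4i, its most abundant member, with 260, 249 and 214 in Mirc11-/- libraries. The median H4 member stood at -0.74, -0.71 and -0.30 (log2) relative to its wildtype mean there. That was highest in Mirc11-/- library 3, as in the other classes. For all 5 classes the groups overlapped at wildtype library 3, and the log2 ratios of the means were -0.49 for H1, -0.77 for H2A, -0.54 for H2B, -0.76 for H3 and -0.40 for H4. No p is given for a sum. The sums weigh the abundant members most. The median log2 fold change of the members was -0.94 for H1, -0.62 for H2A, -0.89 for H2B, -0.76 for H3 and -0.60 for H4.

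**Figure D3:**
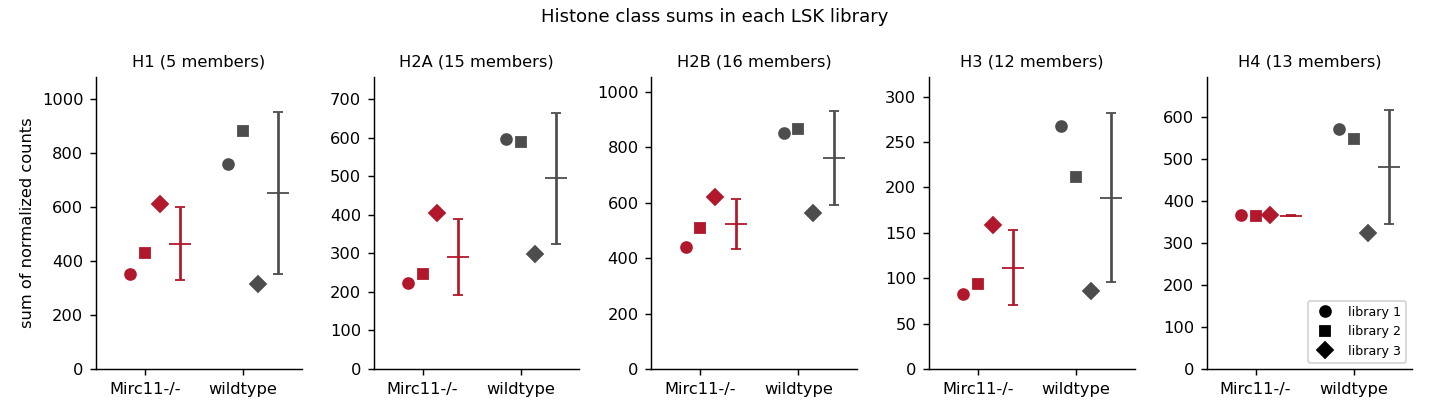
Sum of normalized counts over the members of each histone class in each library (points, shaped by library number), with the mean and SD of each group beside them. In every class wildtype libraries 1 and 2 lie above the Mirc11-/- libraries and wildtype library 3 lies below the highest of them.

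Among the H1 members, the libraries lay closest together for the most abundant. Hist1h1c, which encodes linker histone H1.2, had 258, 333 and 327 normalized counts in Mirc11-/- libraries, against 334, 417 and 213 in wildtype libraries. Wildtype library 3 was the lowest of the 6, the groups overlapped, and the log2 fold change was -0.03 (SE 0.23, limma adjusted p = 0.986). Hist1h1d, the gene of H1.3, had 30.3, 33.2 and 107 in Mirc11-/- libraries, against 127, 169 and 24.3 in wildtype libraries. Here Mirc11-/- libraries 1 and 2 and wildtype library 3 were several-fold below the other 3 libraries. The genes of H1.1 and H1.4, Hist1h1a and Hist1h1e, had that division too. Hist1h1a had 20.8, 18.7 and 65.4 in Mirc11-/- libraries, against 104, 117 and 24.3 in wildtype libraries, with a log2 fold change of -1.15 (SE 0.65). Hist1h1e had 23.6, 22.8 and 72.4 in Mirc11-/- libraries, against 102, 96.3 and 29.4 in wildtype libraries, and overlaps Hist1h2be.

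Among the H2A members, Hist3h2a made up the largest part of the counts. It had 115, 124 and 185 normalized counts in Mirc11-/- libraries, against 215, 222 and 181 in wildtype libraries. Mirc11-/- libraries 1 and 2 were below every other library, and Mirc11-/- library 3 was level with wildtype library 3. The log2 fold change was -0.57 (SE 0.21, limma adjusted p = 0.528). Without Mirc11-/- library 3 it was -0.78 with a limma adjusted p of 0.0424, the only member to pass, in a fit where 1.46% of all genes were lower and past the threshold. Hist3h2a overlaps an exon of Trim17, and how many reads these genes might share was not measured. Hist1h2ac had 25.5, 24.9 and 48.3 in Mirc11-/- libraries, against 94.7, 92.3 and 33.4 in wildtype libraries, a log2 fold change of -1.06 (SE 0.44). Hist1h2ae had 19.9, 23.9 and 27.2 in Mirc11-/- libraries, against 55.2, 37.7 and 25.3 in wildtype libraries. In both genes wildtype library 3 fell within the Mirc11-/- range. Hist1h2ad had 12.3, 24.9 and 19.1 in Mirc11-/- libraries, against 38.5, 31.8 and 15.2 in wildtype libraries. Hist1h2an, with one of the largest differences, had 7.57, 3.12 and 17.1 in Mirc11-/- libraries, against 43.4, 46.6 and 6.08 in wildtype libraries, a log2 fold change of -1.52 (SE 0.80). Hist1h2af, at the lower edge, had 5.67, 2.08 and 1.01 in Mirc11-/- libraries, against 2.96, 4.96 and 0 in wildtype libraries, too few reads to give a direction.

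Among the H2B members, the 2 most abundant kept a high level in wildtype library 3. Hist2h2be had 172, 218 and 226 normalized counts in Mirc11-/- libraries, against 166, 194 and 205 in wildtype libraries, and was among the 5 members with a positive log2 fold change (0.12, SE 0.16). Hist1h2bc had 91.7, 91.4 and 147 in Mirc11-/- libraries, against 129, 183 and 165 in wildtype libraries, a log2 fold change of -0.55 (SE 0.24). In Hist1h2bc, as in Hist3h2a, Mirc11-/- libraries 1 and 2 were the lowest of all. Hist1h2bg, whose promoter is printed above, had 77.6, 91.4 and 85.5 in Mirc11-/- libraries, against 185, 155 and 96.3 in wildtype libraries. Its groups did not overlap, with a gap of a few counts at wildtype library 3, and the log2 fold change was -0.72 (SE 0.25, limma adjusted p = 0.505). Hist1h2bb, whose promoter is also printed, had 23.6, 15.6 and 33.2 in Mirc11-/- libraries, against 63.1, 58.6 and 6.08 in wildtype libraries. Wildtype library 3 was the lowest of the 6 there, and the log2 fold change of -0.32 (SE 0.78) turned to 0.23 without wildtype library 1. Hist1h2bh had 9.46, 4.15 and 9.06 in Mirc11-/- libraries, against 46.3, 26.8 and 5.07 in wildtype libraries (-1.29, SE 0.72). Hist1h2bj had 5.67, 7.27 and 18.1 in Mirc11-/- libraries, against 29.6, 37.7 and 10.1 in wildtype libraries (-1.21, SE 0.57). In both, wildtype libraries 1 and 2 alone were high.

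The H3 members were low, none with a mean above that of Hist1h3d, and held 2 of the members with a positive log2 fold change. Hist1h3d had 19.9, 14.5 and 31.2 normalized counts in Mirc11-/- libraries, against 63.1, 39.7 and 24.3 in wildtype libraries (-0.89, SE 0.42). Hist1h3c had 23.6, 20.8 and 27.2 in Mirc11-/- libraries, against 37.5, 22.8 and 11.1 in wildtype libraries. Its groups overlapped in full, and its log2 fold change of 0.15 (SE 0.43) became -0.29 without wildtype library 3. Hist1h3a had 4.73, 9.35 and 23.1 in Mirc11-/- libraries, against 38.5, 29.8 and 6.08 in wildtype libraries (-0.86, SE 0.73). Hist1h3e had 6.62, 17.7 and 17.1 in Mirc11-/- libraries, against 16.8, 21.8 and 14.2 in wildtype libraries (-0.42, SE 0.43). The groups overlapped for all 12 H3 members.

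In H4, Hist1h4i held more counts than any other member of the class. It had 260, 249 and 214 normalized counts in Mirc11-/- libraries, against 303, 300 and 211 in wildtype libraries, with a log2 fold change of -0.15 (SE 0.17, limma adjusted p = 0.819). Hist1h4n had 20.8, 15.6 and 23.1 in Mirc11-/- libraries, against 50.3, 41.7 and 21.3 in wildtype libraries (-0.83, SE 0.37). Without Hist1h4i the log2 ratio of the H4 sums was -0.77, and without Hist2h2be that of the H2B sums was -0.85. Hist1h4m had the largest difference of a member with a mean of at least 10, with 9.46, 7.27 and 1.01 in Mirc11-/- libraries, against 32.5, 24.8 and 16.2 in wildtype libraries. Its groups did not overlap, the log2 fold change was -2.14 (SE 0.63, limma adjusted p = 0.458), and the value of Mirc11-/- library 3 was 1 read. Hist1h4b had 17.0, 19.7 and 16.1 in Mirc11-/- libraries, against 24.7, 32.8 and 10.1 in wildtype libraries. Hist1h4d had 9.46, 16.6 and 21.1 in Mirc11-/- libraries, against 23.7, 34.7 and 8.11 in wildtype libraries. For both genes the log2 fold change, -0.20 and -0.33, had an SE larger than itself and turned above 0 without wildtype library 2. Hist1h4k had 9.46, 13.5 and 13.1 in Mirc11-/- libraries, against 8.88, 15.9 and 6.08 in wildtype libraries, and the largest positive log2 fold change of these members (0.28, SE 0.43).

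Levels between genes were compared per kb of the longest annotated coding transcript. Hist1h4i was the highest, at 352 ± 54.8 normalized counts per kb (SD over 6 libraries), followed by Hist1h1c at 201.1 ± 45.2 and Hist1h2bg at 186 ± 71.3. Hist1h1c and Hist1h2bg differed by less than their spread. Hist1h2bc followed at 116 ± 32.7, then Hist3h2a at 81.0 ± 21, Hist1h1a at 78.7 ± 59.4 and Hist2h2be at 75.1 ± 9.32, which could not be ordered among themselves. The order below Hist1h4i differed between libraries. Hist1h1a was at 28.1, 25.2 and 88.3 per kb in Mirc11-/- libraries, against 140, 158 and 32.8 in wildtype libraries, and Hist1h2bc at 79.4, 79.1 and 127 in Mirc11-/- libraries, against 112, 158 and 143 in wildtype libraries. Across the 61 members the median was 21.8 per kb. The 6 members with a mean of at least 100 normalized counts made up 54.9% of the histone counts.

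Members were also divided by the annotated end of the transcript, since the abundant ones differed from the rest. The division was made after the data had been seen. For 20 members the annotated transcript ended within 100 bases of the stem-loop, for 22 it ran further, and for 13 no 3′ UTR was annotated. For 6, Hist2h2be, Hist1h2bc, Hist1h1a, Hist2h3b, Hist1h2bp and the pseudogene, no stem-loop was found in that transcript. Of these the pseudogene, without a coding sequence, was not searched. The highest mean was 33.4 in those that ended near the stem-loop and 46.9 in those without a 3′ UTR, while the 6 members above 100 all had a transcript that ran further or held no stem-loop. Sums over the 20 members were 166, 174 and 284 normalized counts in Mirc11-/- libraries, against 522, 472 and 147 in wildtype libraries. Sums over the 22 members were 928, 1029 and 1257 in Mirc11-/- libraries, against 1780, 1769 and 961 in wildtype libraries. Those over the 13 members without a 3′ UTR were 75.7, 91.4 and 168 in Mirc11-/- libraries, against 323, 317 and 76.0 in wildtype libraries. The 6 members with no stem-loop found summed to 291, 345 and 453 in Mirc11-/- libraries, against 425, 537 and 404 in wildtype libraries. Hist2h2be and Hist1h2bc carried most of that sum. Wildtype library 3 was at 0.296, 0.541, 0.237 and 0.841 of the mean of wildtype libraries 1 and 2 in these groups, in that order. Single members differed from the last of these sums: on the log2 scale, wildtype library 3 minus the mean of wildtype libraries 1 and 2 was 0.19 for Hist2h2be and 0.10 for Hist1h2bc, but -2.13 for Hist1h1a, -1.48 for Hist2h3b, -2.38 for Hist1h2bp and -0.70 for the pseudogene. The median of the 6 was -1.09, beside -0.92 for the 22 members that ran further, -1.49 for the 20 that ended near the stem-loop and -1.81 for the 13 without a 3′ UTR. Divided by level instead, wildtype library 3 was at 0.764 of the mean of wildtype libraries 1 and 2 in the 6 members with a mean of at least 100, at 0.313 in the 33 from 10 to under 100 and at 0.284 in the 22 below 10. Read by AATAAA near the end, the ratio was 0.732 in the 11 members that have it and 0.423 in the 49 that do not. Those 49 take in the 13 without an annotated 3′ UTR. The 3′ ends used in these cells were not measured.

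**Figure D4:**
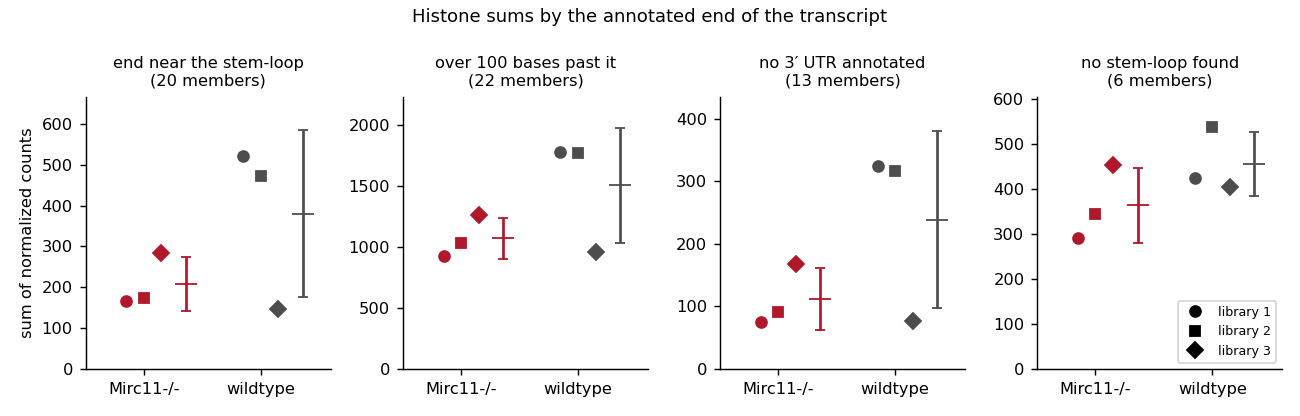
Sum of normalized counts per library (points, shaped by library number, with group mean and SD) over histone members grouped by the annotated end of the transcript. Wildtype library 3 lies far below wildtype libraries 1 and 2 for members that end near the stem-loop (147 against 522 and 472) or have no 3′ UTR. In the sum of members with no stem-loop found it lies close to them, where Hist2h2be and Hist1h2bc make up most of the counts.

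Variant histones, many of which are made throughout the cell cycle from polyadenylated mRNAs, were listed for comparison. Of 15 listed, 11 were tested, 5 were lower and 0 higher at p under 0.05 before adjustment (all genes: 4.09% and 4.15%), and 0 passed the threshold by limma. Every Mirc11-/- library was below every wildtype library for 4 of the 11 (all genes: 6.53%) and above for 0 (all genes: 6.42%), and wildtype library 3 was the lowest wildtype library for 6 (all genes: 37.0%). The 3 genes with the smallest p follow. H3f3b, a gene of the replacement histone H3.3, had 14439, 16560 and 16354 normalized counts in Mirc11-/- libraries, against 20188, 22317 and 21630 in wildtype libraries. The groups did not overlap and wildtype library 3 lay with the other wildtype libraries. The log2 fold change was -0.44 (SE 0.09, limma adjusted p = 0.405, 0.0394 without Mirc11-/- library 3, and 0.00341 by DESeq2). H2afy, the gene of macroH2A1, had 21560, 22519 and 32122 in Mirc11-/- libraries, against 32900, 36586 and 34421 in wildtype libraries (-0.47, SE 0.15, limma adjusted p = 0.485, 0.0110 without Mirc11-/- library 3). H2afy2, the gene of macroH2A2, had 36.9, 77.9 and 94.6 in Mirc11-/- libraries, against 113, 112 and 127 in wildtype libraries (-0.84, SE 0.33, limma adjusted p = 0.566). The groups did not overlap for these 3 genes, which were chosen by their p, nor for H3f3a. They overlapped for the other 7, H2afz, H2afx, H2afv, H2afj, Cenpa, H1f0 and H1fx, named after their values were seen. Of these only H1fx passed without Mirc11-/- library 3 (limma adjusted p = 0.0443).

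A list of genes that process or degrade histone mRNA or regulate histone gene transcription had 23 tested members. Of these, 0 were lower and 3 higher at p under 0.05 before adjustment (all genes: 4.09% and 4.15%), and 0 passed the threshold by limma. Slbp, which binds the stem-loop, had 2989, 2568 and 2212 normalized counts in Mirc11-/- libraries, against 2304, 2408 and 2166 in wildtype libraries (0.17, SE 0.11, limma adjusted p = 0.692). Npat, the coactivator of histone gene transcription, had 1027, 963 and 881 in Mirc11-/- libraries, against 887, 845 and 878 in wildtype libraries (0.14, SE 0.09). The groups overlapped for both genes. Zfp473, a part of the U7 processing complex, had 105, 152 and 113 in Mirc11-/- libraries, against 65.1, 92.3 and 74.98 in wildtype libraries (0.66, SE 0.22, limma adjusted p = 0.502). Pou2f1, which binds the octamer, had 1019, 1118 and 1106 in Mirc11-/- libraries, against 845, 957 and 975 in wildtype libraries (0.23, SE 0.09, limma adjusted p = 0.573). Hinfp, an activator of H4 genes, had 299, 401 and 332 in Mirc11-/- libraries, against 263, 227 and 303 in wildtype libraries (0.38, SE 0.16). Zfp473 and Pou2f1 were higher in every Mirc11-/- library than in any wildtype library, as was Cstf2t, a cleavage factor subunit named after its values were seen (0.14, SE 0.08), which makes 3 of the 23 (all genes: 6.42%). Of 24 chaperone and chromatin assembly genes, 0 were lower and 1 higher at p under 0.05 before adjustment (all genes: 4.09% and 4.15%). That gene was Ubn2, of the chaperone complex for H3.3, with 2091, 2017 and 1963 in Mirc11-/- libraries, against 1385, 1576 and 1893 in wildtype libraries (0.33, SE 0.11). Supt16, a subunit of the chaperone FACT (0.20, SE 0.12), and Asf1b, a chaperone of H3 and H4 (0.26, SE 0.21), overlapped between groups. Of the variant histone, processing and chaperone genes, edgeR called 0 and DESeq2 1, H3f3b.

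Low histone counts did not always go with low S phase sums. Of 36 S phase genes and of 24 G2/M genes, 0 were lower and 0 higher at p under 0.05 before adjustment (all genes: 4.09% and 4.15%). By limma 0 passed. S phase sums were 127397, 112534 and 99947 normalized counts in Mirc11-/- libraries, against 122437, 116571 and 97044 in wildtype libraries, and Mirc11-/- library 1, the lowest in histone counts, was the highest here. G2/M sums were 92072, 77121 and 56471 in Mirc11-/- libraries, against 71424, 75334 and 57056 in wildtype libraries. Wildtype library 3 was the lowest wildtype library for all 36 S phase and 23 of 24 G2/M genes (all genes: 37.0%), as it was for 55 of the 61 histone members, and Mirc11-/- library 3 was low in both sums too. Ccne1 and Ccne2, the genes of cyclin E, had log2 fold changes of 0.66 (SE 0.32) and 0.31 (SE 0.16), and E2f1, which drives S phase genes, -0.13 (SE 0.09). Without Mirc11-/- library 3, Ccne1 and Ccne2 passed (limma adjusted p = 0.0137 and 0.0405), the only 2 S phase genes to do so. Both were higher in Mirc11-/- libraries, and the share of all genes higher and past the threshold in that fit is not given here. The proliferation marker Mki67 had 0.31 (SE 0.22), the cytokinesis gene Kif23 -0.13 (SE 0.10) and Ube2c, of the anaphase machinery, 0.25 (SE 0.21). All 6 overlapped between groups.

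**Figure D5:**
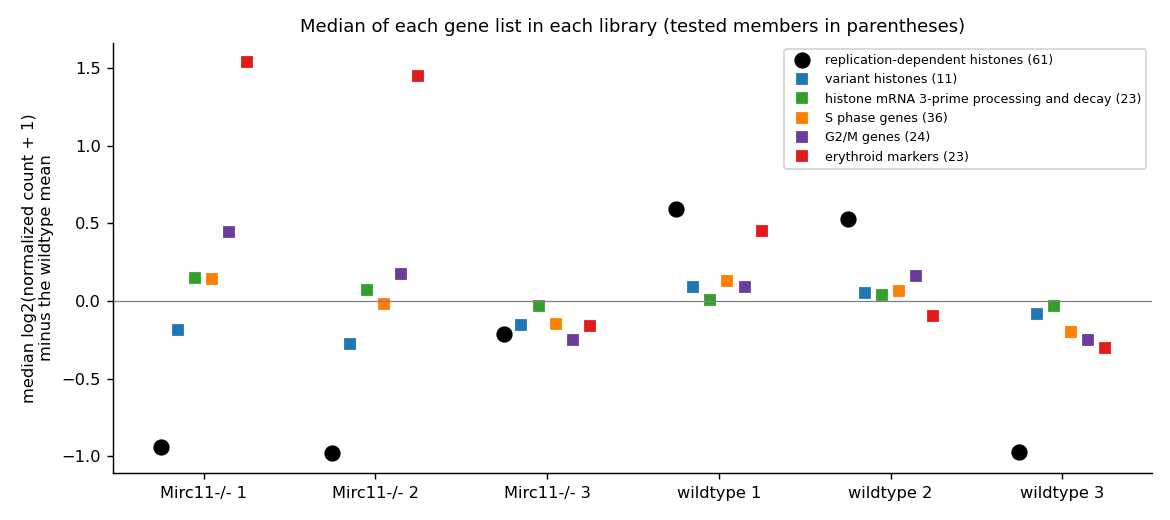
Median log2(normalized count + 1) of each gene list in each library, relative to the wildtype mean of each gene, with the number of tested members in the legend. Histone members (black circles) are at -0.94 and -0.98 in Mirc11-/- libraries 1 and 2 and at -0.97 in wildtype library 3, while S phase genes stay within 0.2 of 0 and erythroid markers are at 1.54 and 1.45 in Mirc11-/- libraries 1 and 2 and at 0.45 in wildtype library 1.

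Markers of other cell types moved with some of these libraries, and their part in the histone values was not tested. Erythroid markers summed to 62121, 57208 and 27780 normalized counts in Mirc11-/- libraries, against 35404, 26994 and 26124 in wildtype libraries, with 9 of 23 higher and 0 lower at p under 0.05 before adjustment (all genes: 4.15% and 4.09%), or 8 of 20 when hemoglobin entries with identical values are counted once. Mirc11-/- libraries 1 and 2 were thus high in erythroid markers and low in histone members, wildtype library 1 was next in erythroid markers and high in histone members, and wildtype library 3 was as low in histone members with the lowest erythroid sum. Car2 and Tfrc, the most abundant of that list, had log2 fold changes of 0.59 (SE 0.21) and 0.42 (SE 0.24). Of 12 LSK and stem cell markers, 2 were lower and 0 higher, with sums of 27999 to 49466 in Mirc11-/- and 41690 to 49392 in wildtype libraries. Those 2 were Cd34 (-0.43, SE 0.18) and Flt3 (-0.49, SE 0.22), surface markers of progenitors. Myeloid markers had 1 lower and 5 higher of 18, with sums of 155852 to 257412 in Mirc11-/- and 181762 to 219961 in wildtype libraries. The log2 fold change was positive for 10 of the 18. The 2 most abundant, Mpo (-0.09, SE 0.20) and Elane (-0.04, SE 0.17), overlapped between groups. B cell markers summed to 809 to 1503 in Mirc11-/- and 1121 to 1187 in wildtype libraries, with 1 of 12 higher. Their log2 fold change was positive for 9 of the 12, but negative for the 2 most abundant, Cd79b (-0.16, SE 0.12) and Blnk (-0.41, SE 0.21). T and NK cell markers were near the floor, at 68.1 to 161 in Mirc11-/- and 98.3 to 124 in wildtype libraries, with 0 of 7 past p under 0.05. Of the 7, 4 had a positive log2 fold change, while Cd4 had -0.16 (SE 0.38) and Klrb1c -0.69 (SE 0.35). Megakaryocyte markers summed to 2367 to 3131 in Mirc11-/- and 2110 to 2816 in wildtype libraries, with 1 of 9 higher. Of the 9, 7 had a positive log2 fold change, and Itga2b had 0.11 (SE 0.18) and F2r -0.06 (SE 0.16). Mast cell and basophil markers summed to 1647 to 3524 in Mirc11-/- and 1815 to 1977 in wildtype libraries, with 2 of 8 higher. Of the 8, 6 had a positive log2 fold change, and Hdc had -0.06 (SE 0.14) and Cpa3 0.20 (SE 0.21). By limma with all 6 libraries no marker of any of these lists passed the threshold. DESeq2 called 1 erythroid and 1 myeloid marker, Hemgn and Mmp9, which are named after their values were seen. Without Mirc11-/- library 3, 20 of the 23 erythroid markers passed by limma. So did 2 of 12 LSK, 2 of 18 myeloid, 1 of 12 B cell and 1 of 8 mast cell and basophil markers. In the other marker lists 0 did. In that fit 1.46% of all genes were lower and past the threshold. That share covers lower genes only, whereas all 23 erythroid markers had a positive log2 fold change with all 6 libraries. The share of all genes higher and past the threshold in that fit is not given here.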

How the data were processed

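LSK cells were sorted by flow cytometry, RNA with a poly(A) tail was selected, and libraries were sequenced paired-end with 75 total cycles. STAR, Cufflinks and the build mm10 are named in the submitters' notes on processing, without versions, while the study's methods give a human build. Although the deposited table bears the name FPKM, the authors' values behave as a signal made of read counts over a scaling step per library: 100% of the values above 0 were whole multiples of it within 0.001. The handling of reads that match several histone copies is not given in the sources used here.

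Entries with a mean of at least 1 were kept. The genotypes were compared with limma 3.58.1 (R 4.3.3) on log2(value + 1), with a mean-variance trend, two-sided. The alternatives were edgeR 4.0.16 and DESeq2 1.42.0 on the recovered reads, other pseudocounts, filters and scalings, a replicate block and each library left out. The fits were tested on simulated data. The log scale test was chosen because the values had been found to be scaled read counts and not FPKM. P-values measure the spread between 3 pooled preparations per genotype. An exact permutation test of 3 against 3 cannot give a p under 0.1.

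Named were, in each class, the 4 members with the highest mean, the 4 with the largest and the 4 with the smallest log2 fold change among those with a mean of at least 10, every member past the threshold, those beside the minimum, the 3 genes with the smallest p of each other list, the 2 most abundant of each marker list, Slbp, Npat and the deleted locus. Members and lists were chosen with earlier results of these data known. Other members were named after their values were seen. Transcripts are those of GENCODE M21 (GRCm38, the longest coding one per gene) and promoters those of RefSeq.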

Additional observations from a re-analysis of the deposited data

How the results depend on the processing

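The number of histone members past the threshold stayed at 0 under every alternative except that leaving out 1 library at a time gave 0 to 1, the 1 being Hist3h2a without Mirc11-/- library 3. Their median log2 fold change ran from -1.35 (without wildtype library 3) to -0.47 (without wildtype library 1). Over all genes 5 passed, against 125 by DESeq2, 30 with the replicate number as a block (replicate block) and 1 to 531 with 1 library left out. Same-numbered libraries correlated at 0.07, -0.06 and 0.10, so the numbers were not taken as pairs. Without its most abundant member the log2 ratio of the sums was -0.85 for H2B and -0.77 for H4. The H1 sum, with a log2 ratio of -0.49, also rested much on 1 gene. Hist1h1c had a log2 fold change of -0.03, beside a median of -0.94 over the 5 H1 members. A further alternative, chosen after seeing the data, left out members that overlap another gene, which leaves no H2A member and gave no value for that class. Counting identical entries once and keeping members with a mean of at least 10 were also chosen after seeing the data.

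Signs of small differences changed. By edgeR Hist1h3c had -0.0014, and after quantile scaling Mpo had 0.087 and Elane 0.135. With 1 library left out at a time, log2 fold changes ranged from -0.29 to 0.19 for Hist1h1c, -1.36 to 0.23 for Hist1h2bb, -0.29 to 0.54 for Hist1h3c, -0.64 to 0.0037 for Hist1h3e, -0.67 to 0.13 for Hist1h4b, -0.89 to 0.092 for Hist1h4d, -0.0038 to 0.62 for Hist1h4k and -0.49 to 0.80 for Hist1h2af, and among markers from -0.31 to 0.11 for Mpo, -0.20 to 0.14 for Elane, -0.50 to 0.31 for Cd4, -0.037 to 0.30 for Itga2b, -0.22 to 0.074 for F2r and -0.21 to 0.083 for Hdc. The cause was not tested.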
